A study of Rattus norvegicus with 14 samples.

Results

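The genes described here are the nuclear-encoded subunits of oxidative phosphorylation, taken by symbol from a table of RNA-seq gene counts and set out complex by complex. The symbols had to begin with Nduf followed by a, b, c, s or v and a digit (complex I), to be Sdha, Sdhb, Sdhc or Sdhd (complex II), to begin with Uqcr or be Cyc1 (complex III), to begin with Cox and a digit from 4 to 8 (complex IV), or to begin with Atp5 (complex V). These patterns took 81 of the 16816 symbols in the table, 35 in complex I, 4 in complex II, 8 in complex III, 16 in complex IV and 15 in complex V. The other 3, Cox4nb, Atp5s and Atp5sl, match by name and were kept apart, as they are not counted among the subunits. The patterns use names and no expression value, but the genes were chosen with earlier results of these data known.

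The libraries came from PCCL3, a line of differentiated rat thyroid cells, stably transfected with an empty vector (EV cells) or with the myc-tagged human PAX8-PPARG fusion protein of thyroid carcinoma (PPFP cells). Both lines received pioglitazone, a ligand of PPARG, at 1 μM for 16 hours, or the DMSO vehicle (written as without pioglitazone). The 4 groups held 3 libraries each, from separate experiments by the study's methods, and all cells were grown with thyrotropin, insulin and hydrocortisone in the medium. Each transfectant is a single line, so that the fusion protein and any other difference between these lines cannot be told apart. RNA was measured in bulk, so that a change in every cell and a change in a share of the cells cannot be told apart either.

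Complexes I and II pass electrons from NADH and succinate to ubiquinone, complex III passes them on to cytochrome c, and complex IV reduces oxygen. Complexes I, III and IV pump protons across the inner mitochondrial membrane, and complex V, the ATP synthase, makes ATP from the gradient. The complexes are built of subunits in fixed proportion. Mitochondrial DNA codes for the membrane core of complexes I, III, IV and V, which the name patterns do not cover, whereas complex II is wholly nuclear. Thyroid follicular cells need NADPH and hydrogen peroxide for hormone synthesis, and their respiratory chain is known best from the mitochondrion-rich oncocytic tumours of the gland.

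The libraries held between 23724703 and 35240176 counts, of which the members took 1.53% to 1.92%. Levels are given as CPM, counts relative to the size of the library, scaled by TMM factors, which correct for RNA composition and lay between 0.926 and 1.05. They do not correct for transcript length, and levels are therefore not compared between genes. The rat Pparg symbol measured 1.23 to 2.81 CPM in the 6 EV libraries and 46.7 to 61.2 CPM in the 6 PPFP libraries, and Pax8 measured 681 to 796 CPM and 540 to 705 CPM. Reads of the human transgene can only have been counted there in so far as they aligned to the rat genome. Of 12 thyroid follicular markers, 11 reached 1 CPM in every library, and Pax8 was among them. The summed level of 6 adipocyte markers (Adipoq, Lep, Fabp4, Plin1, Cidec and Retn) was 1.20 to 3.11 CPM in EV cells and 0.646 to 2.75 CPM in EV cells with pioglitazone, against 18.5 to 19.3 CPM in PPFP cells. With pioglitazone the PPFP libraries reached 53.3 to 73.5 CPM. Lep, Fabp4 and Retn stayed under 1 CPM in every library, 2 of the 6 markers had no count at all, and the part of this marker signal in the results below was not tested. The sum of 6 muscle markers was 3.50 to 17.1 CPM in the 6 EV libraries and 0.696 to 1.82 CPM in the 6 PPFP libraries, and 4 of these markers, Ckm among them, stayed under 1 CPM in every library. The sum of the thyroid markers was 13870 to 14580 CPM in PPFP libraries without pioglitazone and 10490 to 10690 CPM with it, beside 11000 to 14220 CPM and 11710 to 14940 CPM in those of EV cells. The part of these sums in the results was not tested either. The sums for leukocytes and fibroblasts reached at most 7.09 and 34.5 CPM.

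Replicates 2 and 3 of PPFP cells with pioglitazone stood unusually close together. Their counts differed by a mean chi-square of 1.70 per gene, where sampling noise alone gives about 1 and the other 11 pairs of libraries within a group gave 17.8 to 113. They differed by more than sampling noise and were kept as separate libraries, as labelled. The 17.8 belongs to replicates 2 and 3 of PPFP cells without pioglitazone, which were also close for many genes. Their median chi-square was 1.15, beside 0.647 for the treated pair and 4.70 to 12.8 for the other pairs within a group. Whether either pair came from independent experiments was not tested, and both PPFP groups may hold fewer than 3 independent samples. The main counts of calls that use the treated group are therefore also given with its replicates 2 and 3 summed and counted as 1 sample, and the blocked counts of the pioglitazone comparisons with either of these left out. The untreated pair was not summed in any fit. Among the 71 subunits that reached 1 CPM in at least one library, replicate 3 was the highest of the EV libraries for 65 without and 61 with pioglitazone, whereas replicate 1 was the highest of the PPFP libraries for 56 without and 57 with it. Libraries of one cell line that shared a replicate number deviated together from their groups. Where a block for the replicate number changed the calls of a pioglitazone comparison, its values are therefore printed beside the others. In PPFP cells the number did not tell replicates 2 and 3 apart. Untreated replicate 2 differed from treated replicates 2 and 3 by mean chi-squares of 58.7 and 58.7, and untreated replicate 3 by 66.1 and 67.8. The blocked PPFP values thus rest on numbers whose pairing of replicates 2 and 3 was not shown.

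The first comparison asks how the transcripts of the complexes differed between PPFP and EV cells without pioglitazone. The subunits moved in both directions and by less than a factor of 2, with more members higher than lower in PPFP cells in complexes I, III, IV and V, and no call in complex II in edgeR's quasi-likelihood test on these 6 libraries. At an adjusted p under 0.05 in edgeR's quasi-likelihood test, 17 of the 75 members tested (22.7%) were higher in PPFP cells and 4 (5.33%) were lower, where 22.0% of all 10264 genes tested were higher and 23.1% were lower (45.2% in either direction). The share of members called higher was thus close to that of all genes, and the share called lower was smaller. None of the 21 passed a fold of 2, which 7.27% of all genes passed upward and 7.31% downward. The median absolute log2 fold change was 0.20 over the members and 0.33 over all genes. Members did not overlap between the groups in 21 cases higher (25.7% of all genes did so) and 7 lower (30.3% of all genes). The median log2 fold change of the members was 0.11, against 0.00 over all genes, and by complex it was 0.04 in complex I, -0.02 in complex II, 0.15 in complex III, 0.23 in complex IV and 0.13 in complex V. Leaving out EV replicate 2 took the medians of complexes I and V to -0.01 and 0.01, and leaving out EV replicate 3 took them to 0.10 and 0.27. With one library left out, that of complex II ranged from -0.08 to 0.06, that of complex III from 0.11 to 0.22 and that of complex IV from 0.12 to 0.30. With library size alone as the scaling, the medians of complexes I and II were -0.05 and -0.10, those of the other complexes stayed above 0, and the median of all genes was -0.08. In that scaling the members called lower rose from 4 to 9 and those called higher numbered 15. The shares of all genes called each way in that scaling are not given here. As the median of all genes fell too, these counts are not a result about the members. Leaving out EV replicate 1 left 10 members called higher, and leaving out PPFP replicate 3 left 2 called lower, ending the calls of Ndufs8 and Ndufb2. Of the 21 calls, 12 were kept in every alternative run, those of Ndufa12, Ndufa7, Ndufb9, Ndufa6, Uqcrb, Uqcr11, Cox6c, Cox4i1, Atp5b and Atp5d on the higher side and of Atp5e and Cox8a on the lower side.

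**Figure D1:**
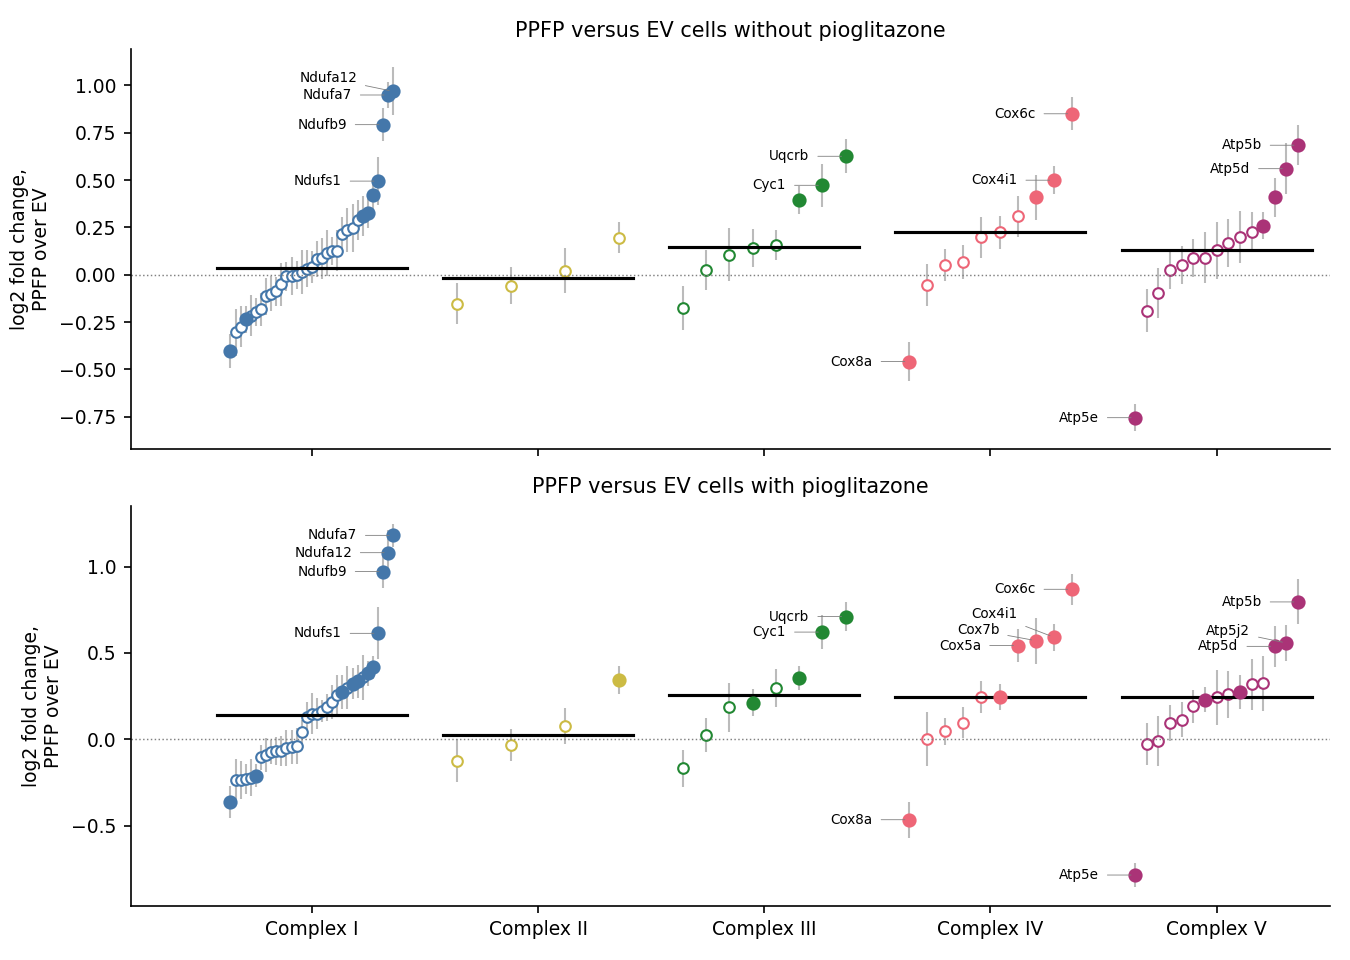
Log2 fold change of each tested subunit in PPFP over EV cells, without pioglitazone (top) and with it (bottom), by complex. Points are subunits with their standard error, filled where the adjusted p was under 0.05, and bars mark the median of the complex; Ndufa4l2 and Cox6a2, which had few counts, are not drawn. In each of complexes I, IV and V, subunits at both ends of the range were called in opposite directions, and the point farthest below 0 is Atp5e.

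Complex I gave 7 members higher and 2 lower of 34 tested. Ndufa12, an accessory subunit at the junction of the matrix and membrane arms, measured 106, 103 and 145 CPM in the EV libraries and 235, 216 and 229.7 CPM in those of PPFP cells. Every PPFP library lay above every EV library, and EV replicate 3 was well above the other two. The log2 fold change was 0.97 (SE 0.13, adjusted p = 0.000703). Ndufa7, an accessory subunit of the matrix arm, measured 64.5, 66.4 and 69.3 CPM in the EV libraries and 131, 125 and 125 CPM in those of PPFP cells. The groups were tight and far apart, with a log2 fold change of 0.95 (SE 0.07, adjusted p = 4.49e-05). For Ndufb9, an accessory subunit of the membrane arm, the levels were 164, 163 and 189.8 CPM in the EV libraries and 311, 274 and 296 CPM in those of PPFP cells. The PPFP libraries were again all higher, by 0.79 (SE 0.09, adjusted p = 0.000324) on the log2 scale. Ndufs1, the largest subunit of the matrix arm and carrier of iron-sulphur clusters, stood at 273, 244 and 336 CPM in the EV libraries and 439, 365 and 377 CPM in those of PPFP cells. Its groups did not overlap but EV replicate 3 came near PPFP replicate 2, and the log2 fold change was 0.49 (SE 0.13, adjusted p = 0.0145). Leaving out EV replicate 1 ended that call, at an adjusted p of 0.0579 in edgeR's test.

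Ndufs8 and Ndufb2 were the subunits of complex I called lower. Ndufs8, which holds iron-sulphur clusters on the way to ubiquinone, measured 114, 115 and 134 CPM in the EV libraries and 97.5, 87.8 and 85.4 CPM in those of PPFP cells. All PPFP libraries were below all EV libraries, and the log2 fold change was -0.40 (SE 0.09, adjusted p = 0.0078). Ndufb2, an accessory subunit of the membrane arm, measured 79.3, 79.7 and 80.1 CPM in the EV libraries and 68.8, 65.0 and 66.2 CPM in those of PPFP cells. The spread within each group was small, and a difference of -0.24 (SE 0.07, adjusted p = 0.0282) on the log2 scale was enough for a call. Ndufv1, the subunit that binds NADH and its flavin, measured 199, 193 and 254 CPM in the EV libraries and 183, 169 and 173 CPM in those of PPFP cells. The groups did not overlap, yet the log2 fold change of -0.28 (SE 0.11, adjusted p = 0.0716) did not pass. It was called lower with library size alone, in the fit of all 12 libraries and without EV replicate 2. The core subunits of the matrix arm were thus not called alike, with Ndufs1 and Ndufs7 called higher, the latter at 0.33, Ndufs8 lower, and Ndufv1, Ndufv2 and Ndufs3 not called, at -0.28, -0.01 and -0.30. The remaining calls, Ndufa6 and Ndufv3, were higher at 0.42 and 0.31. Ndufs7, Ndufa6 and Ndufv3 fell outside the rule for named genes and were picked after their values were seen. Ndufa4, now counted as a subunit of complex IV despite its symbol, measured 266, 239 and 289.8 CPM in the EV libraries and 277, 261 and 267 CPM in those of PPFP cells. Its groups overlapped, and the log2 fold change was 0.04 (SE 0.09, adjusted p = 0.718).

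Complex II, succinate dehydrogenase, had no member called among 4 in edgeR's quasi-likelihood test or in DESeq2 (48.3% of all genes), and 1 member had an unadjusted p under 0.05 (52.7% of all genes). Sdha, the flavoprotein that oxidises succinate, measured 274, 264 and 279.9 CPM in the EV libraries and 336, 296 and 292 CPM in those of PPFP cells. The PPFP libraries were all higher, but the log2 fold change of 0.20 (SE 0.08, adjusted p = 0.0877) did not pass. Of the alternatives, one fit of all 12 libraries called it, at 0.19 (adjusted p = 0.0455 in edgeR's test). Sdhb, the iron-sulphur subunit, measured 145, 130.3 and 156 CPM in the EV libraries and 146, 120.4 and 116 CPM in those of PPFP cells, and its groups overlapped. For the membrane anchors Sdhc and Sdhd the log2 fold changes were -0.06 (SE 0.10, adjusted p = 0.66) and 0.02 (SE 0.12, adjusted p = 0.897). Sdhc stood between 181 and 224 CPM in PPFP cells and between 198 and 221 CPM in EV cells, and Sdhd between 95.6 and 118 CPM and between 96.4 and 127 CPM. Neither anchor separated the lines.

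In complex III, 3 of 8 members were called, all higher. Uqcrb, the ubiquinone-binding protein of the complex, measured 96.1, 99.9 and 112 CPM in the EV libraries and 169, 143 and 156 CPM in those of PPFP cells. The groups were well apart, with a log2 fold change of 0.63 (SE 0.09, adjusted p = 0.00112). Cytochrome c1, encoded by Cyc1, hands electrons to cytochrome c and measured 160.0, 161 and 202 CPM in the EV libraries and 266, 220.3 and 228 CPM in those of PPFP cells. Its groups did not overlap, and the log2 fold change was 0.47 (SE 0.11, adjusted p = 0.0114). Without EV replicate 1 the adjusted p of Cyc1 was 0.0536 in edgeR's test. Uqcr11, a small subunit, measured 159, 148 and 166 CPM in the EV libraries and 208, 203 and 201 CPM in those of PPFP cells, so that PPFP cells were higher in every library by 0.39 (SE 0.07, adjusted p = 0.00368) on the log2 scale. The core proteins and the Rieske protein were not called. Uqcrc1 measured 298, 263 and 376 CPM in the EV libraries and 376, 303 and 313 CPM in those of PPFP cells, with a log2 fold change of 0.11 (SE 0.14, adjusted p = 0.566). The Rieske iron-sulphur protein Uqcrfs1 measured 172, 162 and 197 CPM in the EV libraries and 215, 179 and 183 CPM in those of PPFP cells, with 0.14 (SE 0.10, adjusted p = 0.296). In both, EV replicate 3 overlapped the PPFP libraries.

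Complex IV, cytochrome c oxidase, had 11 of its 16 name matches in the test, with 3 higher and 1 lower. Cox6c, a small membrane subunit, measured 240.2, 209 and 247 CPM in the EV libraries and 411, 399 and 426 CPM in those of PPFP cells. No library of one line came near the other line, and the log2 fold change was 0.85 (SE 0.09, adjusted p = 0.000234). Cox4i1, the common form of the subunit at which ATP acts on the enzyme, measured 512, 517 and 567 CPM in the EV libraries and 750.5, 727 and 743 CPM in those of PPFP cells. Its groups were apart as well, by 0.50 (SE 0.07, adjusted p = 0.00124) on the log2 scale. For Cox7b the levels were 134, 119 and 167 CPM in the EV libraries and 185, 175 and 188 CPM in those of PPFP cells, and the log2 fold change of 0.41 (SE 0.12, adjusted p = 0.0243) was lost when any of 5 of the 6 libraries was left out. Cox8a, the smallest subunit, went the other way and measured 497, 590.1 and 657 CPM in the EV libraries and 432, 405 and 412 CPM in those of PPFP cells. All PPFP libraries were lower, EV cells spread widely, and the log2 fold change was -0.46 (SE 0.10, adjusted p = 0.00872). Cox6c is a gene with a processed copy in the table, Cox6c-ps1, and that copy had no count in any library.

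Complex V had 4 members higher and 1 lower of 15 tested, with log2 fold changes from -0.75 to 0.68. Atp5b, the catalytic beta subunit of the F1 head, measured 2585, 2467 and 3117 CPM in the EV libraries and 4601, 4098 and 4213 CPM in those of PPFP cells. The PPFP libraries were all higher, and the log2 fold change was 0.68 (SE 0.11, adjusted p = 0.00152). Atp5a1, the alpha subunit that alternates with beta in the head, measured 1345, 1239 and 1602 CPM in the EV libraries and 1329, 1129.7 and 1154 CPM in those of PPFP cells. Its groups overlapped, and the log2 fold change was -0.19 (SE 0.11, adjusted p = 0.207). Of the central stalk, Atp5d (delta) measured 246, 202 and 295 CPM in the EV libraries and 393, 345 and 339 CPM in those of PPFP cells and was higher by 0.56 (SE 0.13, adjusted p = 0.0111). Atp5e (epsilon), of the same stalk, measured 143, 145 and 144 CPM in the EV libraries and 84.7, 81.8 and 86.5 CPM in those of PPFP cells. Both groups had almost no spread, all PPFP libraries lay far below all EV libraries, and the log2 fold change was -0.75 (SE 0.07, adjusted p = 0.00015). Atp5c1 (gamma), the shaft of the stalk, was not called at 0.02 (SE 0.10, adjusted p = 0.866). Atp5j2, a membrane subunit, measured 144, 128 and 169 CPM in the EV libraries and 194, 187 and 196 CPM in those of PPFP cells, with 0.41 (SE 0.10, adjusted p = 0.0137). Of the 3 genes for the same mature c subunit, Atp5g2 was called at 0.26 and Atp5g1 and Atp5g3 were not, at 0.13 and 0.09. Reads could be shared among these 3 genes. Atp5c1 and the Atp5g genes were named after their values were seen.

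**Figure D2:**
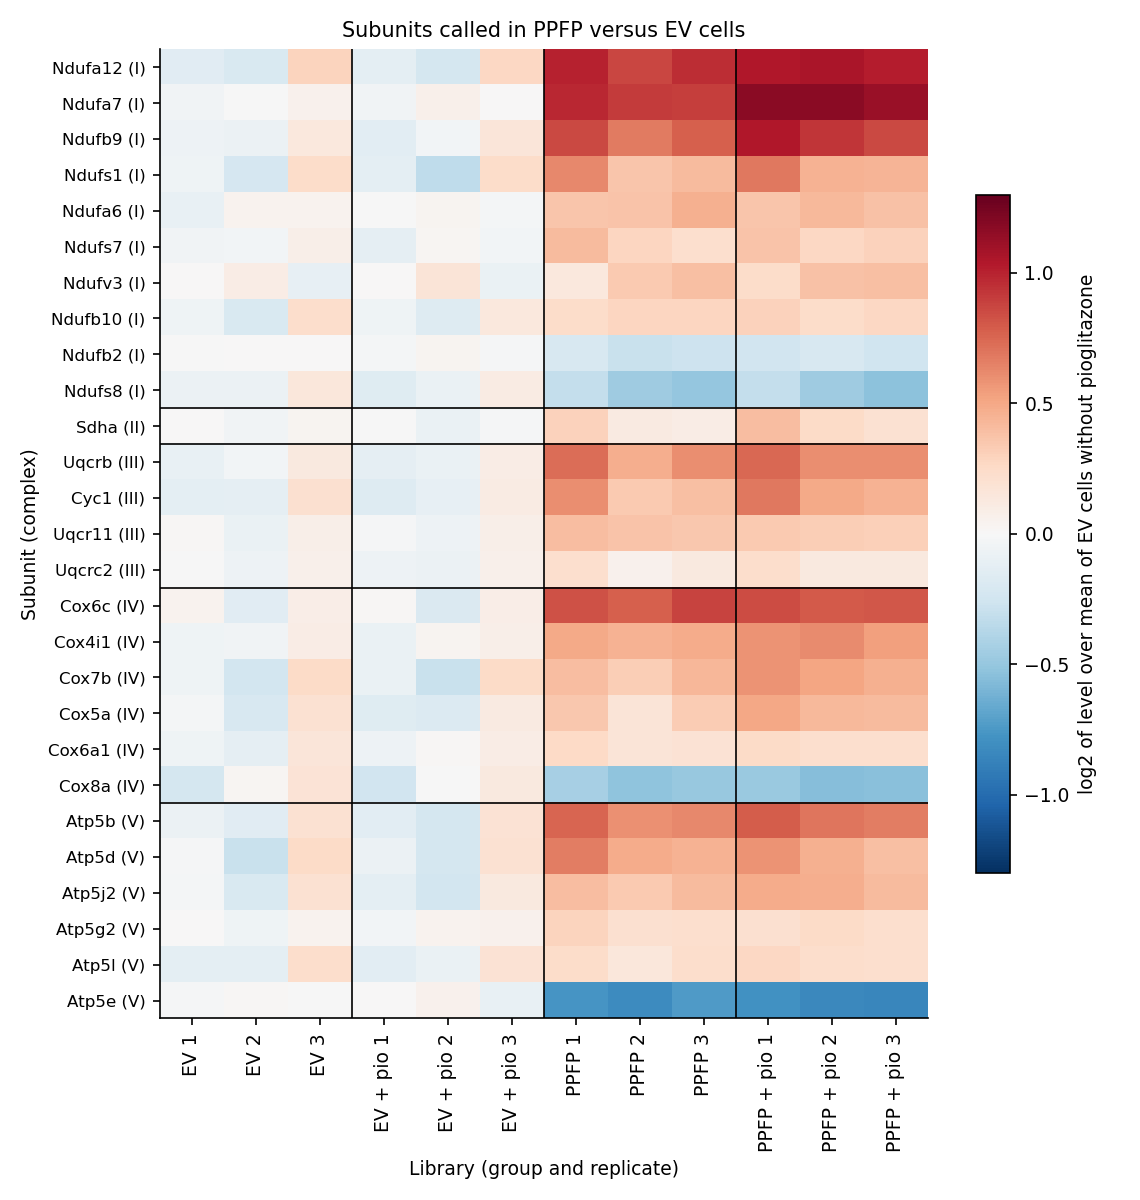
Level of 27 subunits called in PPFP versus EV cells without or with pioglitazone, in each of the 12 libraries, as the log2 of the CPM over the mean CPM of EV cells without pioglitazone. Rows are grouped by complex and columns by group. In 23 of the 27 rows the 6 PPFP columns do not overlap the 6 EV columns (Ndufv3, Uqcrc2, Cox5a and Atp5l are the exceptions), Ndufs8, Ndufb2, Cox8a and Atp5e are lower in PPFP cells, and EV replicate 3 without pioglitazone is the highest of its group in 24 rows.

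Promoter sequences were read from RefSeq (build GRCr8), as 300 bases from 250 before to 50 after the start site, 1 window per gene. All 81 members matched a RefSeq gene, 63 by symbol and 18 by an older symbol, and 68 had a window. Letters of motifs that nuclear factors of respiratory genes are known to bind were searched on both strands. The ETS letters CCGGAAG (GABPA, also called NRF2, is an ETS factor) were in 20 of 68 members (29.4%) and in 9.22% of all 27457 promoters. The letters of an NRF1 site, GCGCA followed directly by its reverse complement TGCGC, were in 4 members (5.88%) and in 0.932% of all promoters, and the YY1 letters AAGATGGCG in 10 members (14.7%) and in 1.93%. The YY1 letters began 111 bases before the start in Atp5j. In the other members that held them they began from 1 base before to 37 bases after the start, and so were not upstream of it. The letters TCAAGGTCA of ESRRA sites were in 2 members (2.94%, against 0.412%), and the direct repeat of PPAR sites, AGGTCA and another AGGTCA with 1 base of any kind between, was in none (0.0583% of all promoters); both of these contain AGGTCA. Of the members called higher in PPFP cells without pioglitazone, 3 of 12 with a window held the ETS letters, as did 2 of 4 called lower and 15 of 49 tested but not called. The windows around a few matches upstream of the start are printed to show that members that were called in opposite directions, or were not called, hold the same letters, which are in capitals.
Ndufs1, called higher, chr9:72073790-72073812 on the minus strand: ctcggctaCTTCCGGcggaactg
Ndufa6, called higher, chr7:115750493-115750515 on the minus strand: gaccgctgCCGGAAGcctcgacg
Ndufs8, called lower, chr1:210573699-210573718 on the minus strand: ggctccgcCTTCCGGttgac
Cox8a, called lower, chr1:213833628-213833650 on the minus strand: cgccggaaCTTCCGGctattgcg
Sdhb, not called, chr5:158547818-158547840 on the plus strand: tcgggataCCGGAAGctgccttc
Atp5g2, called higher, with the NRF1 letters, chr7:135678257-135678282 on the minus strand: ctctagtcGCGCATGCGCagagcctt
Atp5i, not called, with the NRF1 letters, chr14:1464776-1464801 on the plus strand: gcgctacgGCGCATGCGCtttcctgg

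The ETS letters stand on the strand of the gene in the windows of Ndufa6 and Sdhb and on the opposite strand, as CTTCCGG, in those of Ndufs1, Ndufs8 and Cox8a. In Cox8a the letters occur at 2 positions upstream of the start. A pair of matches in the window of Cox4nb, the neighbour that matches by name only, 177 and 157 bases before its start, covers the same bases as a pair of matches 4 and 24 bases after the start of Cox4i1, which is read from the other strand. Cox4i1 was called higher in PPFP cells and Cox4nb was not. A match is a run of letters and not a binding site, and the windows of Ndufb9, Cox6c, Uqcrb and Cyc1 were not analysed here.

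Subunits of one complex were also compared directly, as ratios of their counts within a library, which no scaling between libraries can change. The pairs were picked after their values were seen and are given without a test. The ratio of Atp5b to Atp5a1 counts was 1.92, 1.99 and 1.95 in EV cells and 3.46, 3.63 and 3.65 in PPFP cells, or 1.95 ± 0.035 (SD, n = 3) and 3.58 ± 0.10 (SD, n = 3). The beta to alpha ratio was nearly constant within a line and lay far apart between the lines. For Atp5b to Atp5e the ratio was 18.9 ± 2.4 (SD, n = 3) in EV cells and 51.0 ± 2.9 (SD, n = 3) in PPFP cells. In complex IV, Cox6c to Cox8a stood at 0.405 ± 0.069 (SD, n = 3) and 0.99 ± 0.041 (SD, n = 3). In complex I, Ndufa12 to Ndufs8 stood at 0.969 ± 0.095 (SD, n = 3) and 2.52 ± 0.15 (SD, n = 3), and Ndufs1 to Ndufv1 at 1.32 ± 0.052 (SD, n = 3) and 2.24 ± 0.13 (SD, n = 3). In complex III, Uqcrb to Uqcrh, the hinge protein, stood at 0.652 ± 0.067 (SD, n = 3) and 1.12 ± 0.050 (SD, n = 3). No library of one line reached the range of the other in any of these ratios, and the same held between the pioglitazone groups.

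The summed level of each complex is not corrected for transcript length and was compared between groups only. Complex V summed to 6846, 6361 and 8140.5 CPM in the EV libraries and 9486, 8317 and 8592 CPM in those of PPFP cells. The groups did not overlap, EV replicate 3 came closest to the PPFP libraries, and the ratio of the means was 1.24. The share of Atp5b in this sum, which its transcript length also sets, was 38.3% in EV cells and 48.9% in PPFP cells. The ratios of complexes I, III and IV were 1.10, 1.14 and 1.14, with 3885 ± 385 and 4282 ± 198 CPM (mean ± SD, n = 3) in EV and PPFP cells for complex I, 1541 ± 175 and 1749.7 ± 129 CPM for complex III, and 2857 ± 254 and 3247 ± 88.2 CPM for complex IV. In complexes I and III, EV replicate 3 lay within the range of the PPFP libraries, and in complex IV it was level with PPFP replicate 2. Complex II had a ratio of 1.01 that turned to 0.968 with library size alone, as against 1.19 for complex V. With 3 libraries against 3, an exact permutation test cannot give a two-sided p below 0.1, and none was run on the sums.

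**Figure D3:**
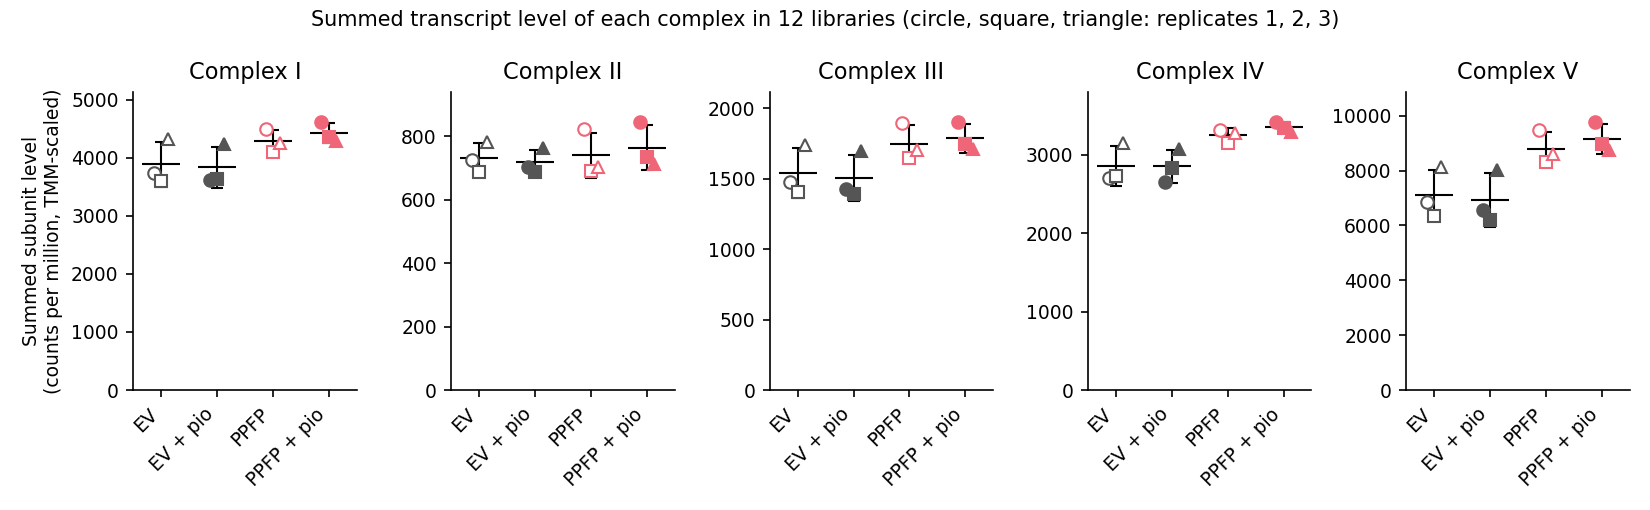
Summed level of the subunits of each complex in the 12 libraries, in TMM-scaled CPM, with the mean and SD of each group of 3 as bar and whiskers. Grey symbols are EV cells, red symbols PPFP cells, open symbols without and filled symbols with pioglitazone, and the shape gives the replicate number. PPFP cells exceeded EV cells in complex V in every library, at means of 8798 against 7116 CPM without pioglitazone, a gap that lay mostly in Atp5b. The pioglitazone groups of a line sat side by side.

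The same lines were compared in the presence of pioglitazone, on the other 6 libraries. Here 24 of 75 members (32.0%) were called higher in PPFP cells and 4 (5.33%) lower, beside 26.3% and 26.4% of all 10291 genes (52.7% in either direction). By complex, 9 were higher and 2 lower in complex I, 1 and 0 in complex II, 4 and 0 in complex III, 5 and 1 in complex IV, and 5 and 1 in complex V. Members did not overlap between the lines in 26 cases higher and 12 lower (29.7% and 33.2% of all genes). Ndufa7 and Ndufa12 passed a fold of 2, which 9.30% of all genes passed upward. The median log2 fold change of the members was 0.19, against 0.01 over all genes, and by complex it was 0.14, 0.02, 0.26, 0.24 and 0.24 in complexes I to V. The median of complex I fell to 0.07 and that of complex V to 0.14 without EV replicate 2, and that of complex II turned to -0.05 without PPFP replicate 1. With library size alone the median of all genes moved to -0.12 and that of the members to 0.05, so that the members stayed higher than all genes by about the same amount, while 11 rather than 4 members were called lower and 17 higher, and the median of complex II turned to -0.11. The shares of all genes called in that scaling are not given here, so these counts of calls are not a result about the members. With the closely similar replicates 2 and 3 of PPFP cells summed and counted as 1 sample, 17 members were called higher and 2 lower (42.4% of all genes in either direction), the lost calls on the lower side being those of Ndufs8 and Ndufb2. Leaving out either of them also left 2 called lower. The calls of 17 higher and 2 lower members were kept in every alternative run, the lower ones being Atp5e and Cox8a.

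With pioglitazone the level of Ndufa7 was 64.6, 69.7 and 67.0 CPM in the EV libraries and 151, 151 and 146 CPM in those of PPFP cells. The lines were farther apart than without the drug, at a log2 fold change of 1.18 (SE 0.07, adjusted p = 1.56e-05). Ndufa12 measured 108, 101 and 143 CPM in the EV libraries and 243, 246 and 239.6 CPM in those of PPFP cells, with 1.08 (SE 0.13, adjusted p = 0.000465). Ndufb9 measured 157, 168 and 192 CPM in the EV libraries and 354, 327 and 311 CPM in those of PPFP cells, with 0.97 (SE 0.10, adjusted p = 0.000173). In all of them every PPFP library was above every EV library. Cox6c stood at 235, 203 and 246 CPM in the EV libraries and 417, 404 and 405 CPM in those of PPFP cells and Atp5b at 2471, 2317 and 3112 CPM in the EV libraries and 4715, 4422 and 4305 CPM in those of PPFP cells. Their log2 fold changes were 0.87 (SE 0.09, adjusted p = 0.000231) and 0.80 (SE 0.13, adjusted p = 0.00186), again without overlap. Uqcrb measured 94.7, 96.9 and 109.8 CPM in the EV libraries and 172, 155 and 156 CPM in those of PPFP cells, a difference of 0.71 (SE 0.08, adjusted p = 0.000376). On the lower side, Atp5e measured 145, 150.1 and 135 CPM in the EV libraries and 83.5, 81.0 and 80.5 CPM in those of PPFP cells, with -0.78 (SE 0.07, adjusted p = 0.000126). Cox8a measured 489, 580.1 and 635 CPM in the EV libraries and 417, 395 and 399 CPM in those of PPFP cells, with -0.46 (SE 0.10, adjusted p = 0.00805). Both were lower in every PPFP library.

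All 21 members called without pioglitazone were also called with it, in the same direction, and 7 were called by edgeR's quasi-likelihood test with it and not without it, among them Ndufb10, Sdha, Uqcrc2, Cox5a, Cox6a1 and Atp5l. Without pioglitazone, alternatives also called 5 of these 6, all but Uqcrc2. They were edgeR's exact test, DESeq2, the fit of all 12 libraries, the replicate block and leaving out EV replicate 3 for Cox5a, DESeq2, the fit of all 12 libraries and leaving out EV replicate 3 for Cox6a1, the latter pair for Ndufb10, the fit of all 12 libraries for Sdha and leaving out EV replicate 3 for Atp5l. That a member passed in one condition and not in the other does not show that its difference changed, and the interaction below is the test of that. Sdha, the complex II member among them, measured 272, 257 and 270.3 CPM in the EV libraries and 359.8, 323 and 313 CPM in those of PPFP cells, all PPFP libraries being higher by 0.34 (SE 0.08, adjusted p = 0.00862) on the log2 scale. Cox5a, which binds the matrix side of the oxidase core, measured 104, 102 and 126 CPM in the EV libraries and 164, 156 and 154 CPM in those of PPFP cells, with 0.54 (SE 0.09, adjusted p = 0.00234). The calls of Ndufb10, Uqcrc2, Cox6a1 and Atp5l were weak, at adjusted p values of 0.0197, 0.0482, 0.0304 and 0.0491 in edgeR's test, and each was lost when replicates 2 and 3 of PPFP cells were summed. These members were named after their values were seen, apart from Sdha and Cox6a1. Across the 71 subunits at 1 CPM or more, the log2 fold changes of both comparisons correlated at r = 0.95, as they did across 10177 genes at r = 0.96. The comparisons share no library, but they share both cell lines, and genes are not independent replicates.

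**Figure D4:**
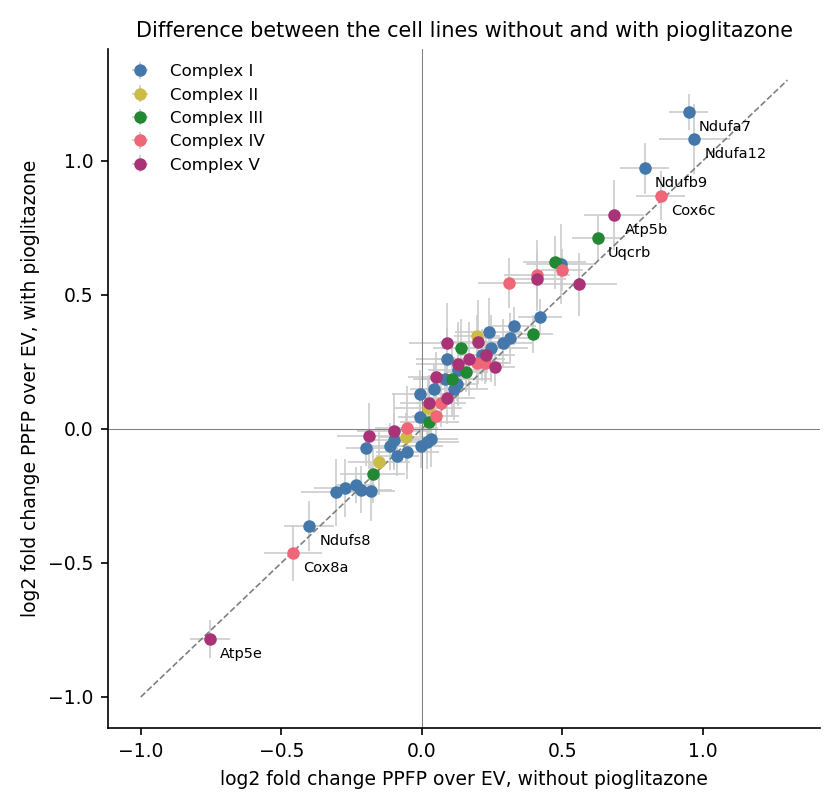
Log2 fold change of each subunit in PPFP over EV cells without pioglitazone (horizontal) and with it (vertical), with standard errors in both directions, coloured by complex; Ndufa4l2 and Cox6a2 are not drawn. The dashed line marks equal values. Ndufa7 lies above the line, at 0.95 and 1.18, and Atp5e lies on it, at -0.75 and -0.78.

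Pioglitazone itself moved the subunits little. In PPFP cells with versus without the drug, 1 of 74 members was called higher (1.35%) and none lower, beside 7.63% and 7.13% of all 10064 genes (14.8% in either direction). The calls among all genes fell from 1486 to 632 when replicate 3 of the untreated group was left out, and to 709 (6.98%) with replicates 2 and 3 of the treated group summed. DESeq2 also called 1 member (20.0% of all genes), and 6 members had an unadjusted p under 0.05 (28.8% of all genes). The called member was Ndufa7, at 131, 125 and 125 CPM without and 151, 151 and 146 CPM with pioglitazone. The groups did not overlap, all 3 replicates rose, and the log2 fold change was 0.24 (SE 0.05, adjusted p = 0.0179). This call was lost without replicate 2 or 3 of either PPFP group, and with replicates 2 and 3 of the treated group summed, at an adjusted p of 0.0866 in edgeR's test. Over the members the median log2 fold change was 0.02, against 0.01 over all genes, and the median absolute change was 0.05 against 0.15.

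With the replicate number as a block, 16 members were higher and 1 was lower in PPFP cells with pioglitazone, 17 of 74 (23.0%), where the block called 51.6% of all genes (27.7% higher and 23.9% lower). Their log2 fold changes stayed between -0.12 and 0.24. Without replicate 2 of the treated group the block fit called 8 higher and 3 lower (45.6% of all genes were called in that fit), and without replicate 3 it called 12 higher and 1 lower (40.3% of all genes). Of the 17, 7 were called in both of these fits: Ndufa7, Ndufb9, Ndufc2, Sdha, Cox5a, Cox7b and Atp5g3. They were listed for that reason, and Ndufc2, Cox5a and Atp5g3 fell outside the rule for named genes and were named after their values were seen. Ndufb9 measured 311, 274 and 296 CPM without and 354, 327 and 311 CPM with pioglitazone. It rose in each of the 3 pairs, by 0.17 (SE 0.04, adjusted p = 0.000256) in the block fit. For Ndufc2, an accessory subunit of complex I, the levels were 90.9, 84.8 and 87.2 CPM and 101, 94.3 and 95.7 CPM. All treated libraries were higher, by 0.15 (SE 0.04, adjusted p = 0.00312), and this subunit was not called between the lines without the drug, at -0.20 (SE 0.07, adjusted p = 0.0592), although DESeq2, library size alone and the fit of all 12 libraries called it lower in PPFP cells, at -0.20, -0.28 and -0.20. Atp5g3 went from 296, 246 and 259 CPM to 335, 285 and 277 CPM, higher in each pair by 0.16 (SE 0.03, adjusted p = 0.000329). Cox5a went from 148, 130.1 and 146 CPM to 164, 156 and 154 CPM. Its groups did not overlap, and the blocked change was 0.17 (SE 0.04, adjusted p = 0.00116). The blocked changes of Sdha and Cox7b were 0.11 (SE 0.03, adjusted p = 0.00548) and 0.14 (SE 0.04, adjusted p = 0.00388). Ndufb4, the member that fell, measured 105, 92.2 and 99.9 CPM and 98.7, 86.6 and 86.7 CPM, with -0.12 (SE 0.04, adjusted p = 0.0152), and its groups overlapped. By complex the block called 6 higher and 1 lower in complex I, 1 higher in complex II, 2 in complex III, 4 in complex IV and 3 in complex V.

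In EV cells, which carry the empty vector, none of the 75 members was called with versus without pioglitazone, by edgeR's quasi-likelihood test, by DESeq2 or with the replicate block, and none had an unadjusted p under 0.05. Nor was any of the 10146 genes called (0%), with 16 (0.158%) under an unadjusted p of 0.05 and 0.00986% called with the block. Without any effect a share of about 0.05 would lie under that limit, so the fit without the block was conservative here. Its fitted spread between libraries (biological coefficient of variation) was 0.156, against 0.0372 with the block. For PPFP cells with versus without the drug these values were 0.126 and 0.0365, and for the interaction below 0.142 and 0.0363. In EV cells Ndufa7 measured 64.5, 66.4 and 69.3 CPM without and 64.6, 69.7 and 67.0 CPM with the drug, and Atp5b 2585, 2467 and 3117 CPM and 2471, 2317 and 3112 CPM. Libraries of the same replicate number were close to each other. Of the members, 59 had a negative and 16 a positive fitted change, with a median log2 fold change of -0.03 that turned to 0.06 when EV replicate 3 without pioglitazone was left out of a fit without the block. Within the numbered pairs, the summed level of the subunits changed by -527, -51.6 and -335 CPM in EV cells and by 550.3, 1248.5 and 206 CPM in PPFP cells. It was thus lower with the drug in each EV pair and higher in each PPFP pair, but with library size alone the PPFP pairs gave -42.9, 433 and -204 CPM, whereas the EV pairs stayed below 0. Complexes II and III had a negative fitted value in all of their members, between -0.07 and 0.00, and no single value passed.

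The difference in the response to pioglitazone between the lines was tested as the interaction in a fit of all 12 libraries. None of 75 members was called by edgeR, where 277 of 10482 genes were (2.64%). With replicates 2 and 3 of the treated PPFP group summed, no member and 150 genes (1.42%) were called. 1 member had an unadjusted p under 0.05, as did 13.3% of all genes. DESeq2 called 1 member and 5.73% of all genes, the member being Ndufa7, at a log2 difference of 0.22 and an adjusted p of 0.0242. In edgeR the difference for Ndufa7 was 0.22 (SE 0.08, adjusted p = 0.211). With the replicate number as a block within each cell line, 11 members were called, all with a higher response in PPFP cells (14.7%), beside 34.3% of all genes (17.2% higher). The largest of these differences were those of Ndufa7, 0.22 (SE 0.05, adjusted p = 0.00417), Cox5a, 0.22 (SE 0.06, adjusted p = 0.00979), and Atp5g3, 0.22 (SE 0.05, adjusted p = 0.00268). The other 8 were Ndufb9, Sdha, Cyc1, Uqcrfs1, Cox7b, Atp5a1, Atp5j2 and Atp5o, between 0.11 and 0.17 on the log2 scale. Without treated PPFP replicate 2 this block called 2 members, Ndufa7 and Atp5g3 (26.3% of all genes), and without treated replicate 3 it called 12 (27.4% of all genes). The 11 members were listed because the block with all libraries called them. Of these, Cox5a, Atp5g3 and Atp5o fell outside the rule for named genes and were named after their values were seen. The interaction shares its PPFP libraries with the comparison of those cells with and without the drug.

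**Figure D5:**
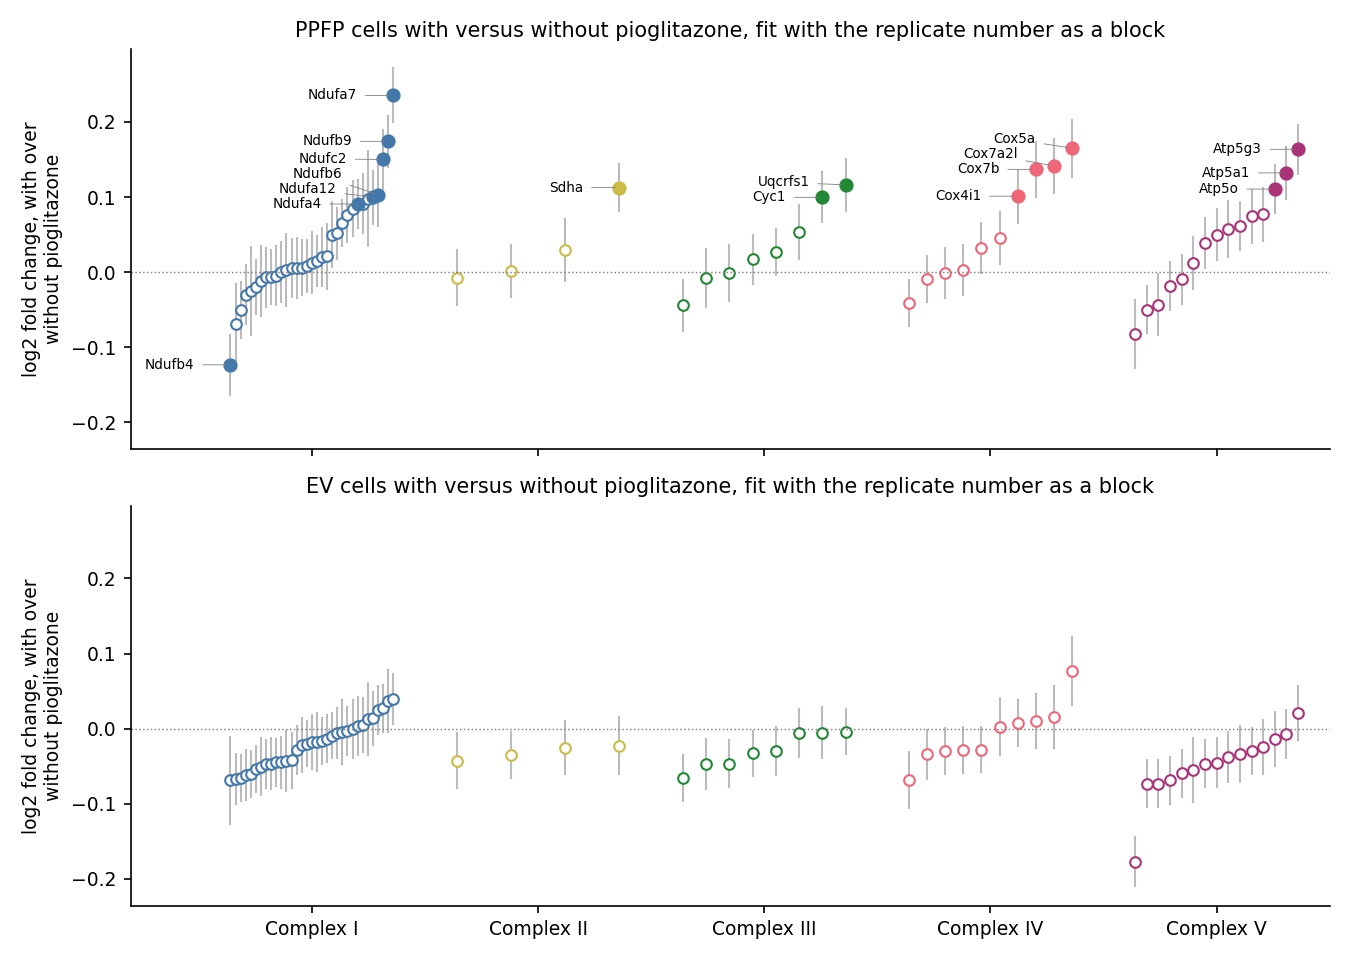
Log2 fold change of each subunit with over without pioglitazone in PPFP cells (top) and EV cells (bottom), fitted with a block for the replicate number, with standard errors, on one vertical scale. Filled points had an adjusted p under 0.05; Ndufa4l2 and Cox6a2 are not drawn. In PPFP cells 16 filled points lie above 0 and Ndufb4 below it, whereas no point is filled in EV cells.

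Several complex IV subunits have alternative forms that mark heart, muscle, lung or testis, and 13 of 16 such forms and partners listed for this report were in the table. Cox4i1, Cox6a1, Cox7a2, Cox7a2l, Cox7b and Cox8a, and Ndufa4, stood above 100 CPM in every library. The forms Cox4i2, Cox6a2, Cox6b2, Cox8b, Cox8c and Ndufa4l2 were near 0. Cox4i2, the lung form, had at most 7 counts in any library, and Cox8b and Cox8c had none. Ndufa4l2 stayed between 0.11 and 0.84 CPM. Cox6a2, the muscle form, measured 0.10 to 1.16 CPM without pioglitazone in EV cells and 0.52 to 0.76 CPM in PPFP cells, with overlap. Cox6b2, the testis form, had 0 counts in each EV library without pioglitazone and 6, 5 and 3 counts in the PPFP libraries, and with pioglitazone 0, 2 and 1 against 6, 5 and 4 counts. Both groups are near the floor of counting, and no fold is given. Cox6a1, the partner of Cox6a2, measured 448, 428 and 518 CPM in the EV libraries and 554, 521 and 528 CPM in those of PPFP cells, all PPFP libraries being higher, with 0.23 (SE 0.09, adjusted p = 0.0683). Cox7a2 and Cox7a2l, the latter a factor that ties complexes III and IV together, were not called between the lines, at 0.20 (SE 0.11, adjusted p = 0.174) and -0.05 (SE 0.11, adjusted p = 0.727). In all, 7 members were under 1 CPM in every library (Cox4i2, Cox6b2, Cox6c-ps1, Cox8b, Cox8c, Ndufa10l1 and Ndufa4l2), and 4 of them had no count.

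The members that match by name only were not called in any comparison by edgeR's quasi-likelihood test. Cox4nb was called in at least 1 alternative in both comparisons of the lines, and Atp5s in at least 1 in PPFP cells with versus without pioglitazone. Cox4nb, a subunit of a membrane protein complex of the endoplasmic reticulum whose gene lies beside Cox4i1, measured 54.4, 39.4 and 74.4 CPM in the EV libraries and 99.6, 62.4 and 66.0 CPM in those of PPFP cells. The libraries of both lines were widely spread and overlapped, and the log2 fold change was 0.46 (SE 0.25, adjusted p = 0.167). Atp5s and Atp5sl, factors linked to complex assembly, had log2 fold changes of 0.26 (SE 0.14, adjusted p = 0.157) and 0.07 (SE 0.08, adjusted p = 0.472).

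Genes that assemble, feed or regulate the complexes were taken from lists of known members. Of 34 assembly factors tested, 3 were higher and 6 lower in PPFP cells without pioglitazone (22.0% and 23.1% of all genes), with a median log2 fold change of -0.07. Ttc19, an assembly factor of complex III, was higher by 0.57 (SE 0.10, adjusted p = 0.00331), and Ndufaf5, of complex I, was lower, at -0.50 (SE 0.12, adjusted p = 0.0123). Of 68 mitochondrial ribosomal proteins, 10 were higher and 5 lower, with a median of 0.09. Of 23 regulators of mitochondrial gene expression, 4 were higher and 6 lower. Ppargc1a, a coactivator that drives mitochondrial biogenesis, averaged 34.6 ± 12.5 CPM (SD, n = 3) in the EV libraries, against 15.3 ± 2.11 CPM in PPFP cells, at -1.17 (SE 0.26, adjusted p = 0.00817). Its partner Esrra fell as well, at -0.47 (SE 0.09, adjusted p = 0.00343), and the related Esrrb went from 16.2 ± 5.86 to 0.249 ± 0.119 CPM. Tfb1m, which methylates mitochondrial ribosomal RNA, was higher at 0.67 (SE 0.10, adjusted p = 0.00113). These genes were named after their values were seen. Between the lines with pioglitazone, 22 ribosomal proteins were higher and 3 lower (26.3% and 26.4% of all genes), with a median of 0.23. The counts were 6 and 7 for the assembly factors, 7 and 7 for the regulators, and 10 and 4 for 21 electron carriers and feeders. With treated PPFP replicates 2 and 3 summed, these 4 lists gave 14 and 3, 2 and 4, 5 and 2, and 9 and 4. That fit called 42.4% of all genes in either direction.

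Of 21 electron carriers and feeders tested, 5 were higher (23.8%, beside 22.0% of all genes) and 4 lower (19.0%, beside 23.1%) in PPFP cells without pioglitazone. Slc25a3, the carrier that brings phosphate to the ATP synthase, went from 519 ± 60.3 to 883 ± 93.4 CPM, at 0.79 (SE 0.11, adjusted p = 0.000907). Cytochrome c, encoded by Cycs, went from 209.6 ± 38.4 to 290.4 ± 51.5 CPM, at 0.49 (SE 0.16, adjusted p = 0.0353). Atpif1, an inhibitor of the ATP synthase, was lower, at -0.46 (SE 0.09, adjusted p = 0.00575). With pioglitazone in PPFP cells, 5 of the 21 rose and none fell in edgeR's test, beside 7.63% and 7.13% of all genes. The replicate block called 12 higher and 4 lower, 16 in all, beside 51.6% of all genes, and 16 and 14 without treated replicate 2 or 3. With treated replicates 2 and 3 summed, 4 were called higher, and Coq10b was not, at an adjusted p of 0.0649 in edgeR's test. The 5 were Dhodh, 1.05 (SE 0.06, adjusted p = 0.00037), Etfdh, 0.76 (SE 0.05, adjusted p = 0.000663), Etfb, 0.45 (SE 0.08, adjusted p = 0.0138), Etfa, 0.40 (SE 0.06, adjusted p = 0.00877), and Coq10b, 0.37 (SE 0.06, adjusted p = 0.0123). Like the other genes of these lists, they were named after their values were seen. Etfa, Etfb and Etfdh carry electrons from fatty acid oxidation to ubiquinone, and Dhodh does so from pyrimidine synthesis. Etfdh averaged 119.6 ± 2.57 CPM without and 201.7 ± 12.6 CPM with the drug, so it rose far beyond the replicate spread, and its response differed between the lines in the interaction, by 0.70 (SE 0.11, adjusted p = 0.00759), and with those replicates summed by 0.72 (adjusted p = 0.0222). Of the other lists, 1 of 22 regulators (Esrra), 2 of 68 mitochondrial ribosomal proteins and none of 34 assembly factors were called in PPFP cells with versus without pioglitazone, where 14.8% of all genes were called. None of those 3 calls was kept with treated replicates 2 and 3 summed. An unadjusted p under 0.05 in edgeR's test was found for 2 assembly factors and for 28.8% of all genes. With the replicate block, 14 of 22 regulators, 28 of 68 mitochondrial ribosomal proteins and 12 of 34 assembly factors were called, beside 51.6% of all genes. Without treated replicate 2 these counts were 12, 24 and 10 (45.6% of all genes), and without treated replicate 3 they were 8, 18 and 8 (40.3%).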

How the data were processed

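The RNA-seq counts were deposited by the authors as one table of raw reads per rat gene symbol, aligned by TopHat2 (2.0.11) to build rn4 and counted with HTSeq (0.6.1p1), per the submitters' processing notes and the study's methods, which give the intersection-strict mode. Each count came from 1 of 12 libraries of total RNA made with an unstranded kit, and replicates were not pooled. Near-identical genes could share or lose reads in this counting. The ChIP-seq peak and input files were not used here.

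Counts were analysed with edgeR (4.0.16) in R (4.3.3). Each pair of groups was fitted on its own 6 libraries, and the difference in response on all 12, with filterByExpr, TMM scaling, the quasi-likelihood test and Benjamini-Hochberg adjustment over all genes tested. A gene was called at an adjusted p under 0.05 at any fold; all adjusted p values of the report are of this test unless another is named. Levels are CPM on TMM-scaled library sizes. The p-values measure the spread between 3 libraries of 1 line. The test was run on simulated counts with known changes before use. At the spread between the lines without pioglitazone it recovered 49.1% of 1.5-fold and 92.0% of 2-fold changes. At that of PPFP cells with versus without the drug it recovered 58.0% and 95.5%. Smaller changes, the size of most member changes, were not simulated.

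Named were, per comparison and complex, up to 3 called members with the largest change each way, the alternative isoforms and their partners, the name-only matches, complex II, 7 catalytic core genes, and as a group the members under 1 CPM everywhere. The members and all gene lists were chosen with earlier results of these data known. Deviations from the group mean, across 9638 genes, correlated at 0.89, 0.72 and 0.67 between same-numbered PPFP libraries and at 0.72, 0.88 and 0.92 between same-numbered EV libraries. By mean chi-square, same-numbered EV libraries (3.21 to 9.79) were closer than any other EV pair, so the numbers paired the EV libraries. In PPFP cells the numbers did not tell replicates 2 and 3 apart, and correlations between libraries of different number were not computed. Alternatives were edgeR's exact test, DESeq2 (1.42.0), RLE and library-size scaling, no filter, a minimum of 10 counts per library, a joint fit of all 12 libraries, the replicate block, and each library left out in turn. Summing replicates 2 and 3 of PPFP cells with pioglitazone, and leaving out either of them within the block fits, were added after seeing the data. RefSeq promoters (GRCr8) were matched by symbol or synonym with Python (3.11.15). The values of 1 member are not reported here; it stays in the counts of members.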

Additional observations from a re-analysis of the deposited data

How the results depend on the processing

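No called member reversed its direction. Over the 50 calls of members in the 3 comparisons that gave any, 238 of 300 leave-one-out values kept the call and 62 lost it, and 385 of 431 values of the other alternatives kept it and 46 lost it. With one library left out, the members higher in PPFP cells numbered 10 to 24 without and 17 to 33 with pioglitazone, and the members lower numbered 2 to 6 and 2 to 4. The median log2 fold change then lay between 0.05 and 0.17 without pioglitazone and between 0.14 and 0.22 with it. The members called higher by pioglitazone in PPFP cells numbered 0 or 1, with 0 when replicate 2 or 3 of either group was left out. Their median log2 fold change lay between -0.03 and 0.05, that in EV cells between -0.11 and 0.06, and that of the interaction between -0.03 and 0.11 in these fits, which do not keep the pairs. With the block and all libraries they were 0.02, -0.03 and 0.04.

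Library size alone as the scaling gave 9 lower members without pioglitazone, and with it 11 lower members and a median log2 fold change of 0.05. The median of all genes moved down in both, and the shares of all genes called in these fits are not given here. One fit of all 12 libraries gave 7 lower members with pioglitazone, and summing PPFP replicates 2 and 3 gave 2. In PPFP cells, pioglitazone called 16 members higher and 1 lower with the replicate block, 8 higher and 3 lower with the block and without treated replicate 2, 12 higher and 1 lower with the block and without treated replicate 3, and 0 higher with those replicates summed. In the interaction, DESeq2 called 1 member higher and the replicate block within cell line called 11, with 2 when treated PPFP replicate 2 was left out as well and 12 when treated replicate 3 was. The cause of these differences was not tested. Between the cell lines, same-numbered libraries correlated at -0.53 to 0.47, so the number did not pair them. The replicate block there called 16 members higher and 3 lower without pioglitazone and 18 higher and 3 lower with it (4050 of 10264 and 4545 of 10291 genes in all).

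Of the members not called, 21 of 54 without and 18 of 47 with pioglitazone changed the sign of their line difference in at least one alternative, and 14 and 20 were called in at least one. A subunit that was not called may still differ between the groups. Members under 1 CPM in every library were limited by their counts. edgeR's exact test compares groups in pairs and was not run for the interaction.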
